A study of Homo sapiens with 26 samples.

Results

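Ribosomes are assembled in the nucleolus, and the 45 genes described here encode proteins that run that assembly line. They were chosen by symbol, as nucleolar factors and RNA polymerase I and III subunits known as targets of the MYC family, out of 26485 genes in each of the study's 2 count tables. All 45 were listed in both tables and all 45 passed the filter on low counts in both. They were followed across 26 RNA-seq libraries of KELLY, an established human neuroblastoma cell line with amplified MYCN. In cell culture, 3 KELLY lines carried a doxycycline-inducible lentiviral vector that also expresses GFP, either F1HUTG without an insert (Empty Vector, EV) or with a hairpin RNA directed at RUNX1T1, named sh4 or shAMB, and each line had 3 libraries with doxycycline and 3 with DMSO, taken after 72 h. A further 8 libraries came from KELLY tumours grown in mice, 4 labelled wild type on control food and 4 labelled RUNX1T1 KO on doxycycline food. The study's methods describe subcutaneous grafts of hairpin-carrying cells in female NOD SCID gamma mice. These mice lack lymphocytes but keep stroma and myeloid cells of their own. The labels do not say which hairpin the tumours carried. The study states that its xenografted KELLY cells carried its hairpin based on an Ambion sequence, and the name shAMB may stand for it. The shAMB line and the tumours may therefore share a hairpin rather than stand for separate ones. In the tumours, the doxycycline food and the RUNX1T1 KO label cannot be told apart, because no tumour had one without the other. RUNX1T1 encodes a transcriptional co-repressor. The comparisons set libraries with doxycycline or the KO label against those with DMSO or control food.

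In the nucleolus, RNA polymerase I transcribes ribosomal RNA (rRNA) from ribosomal DNA repeats and RNA polymerase III supplies the 5S rRNA and transfer RNAs from outside. Small nucleolar ribonucleoproteins (snoRNPs) then modify the precursor, the box C/D class by 2′-O-methylation and the box H/ACA class by pseudouridylation, while assembly factors fold and cut it into the small and large subunits. MYC and MYCN, which bind DNA with MAX at the E-box CACGTG, are known activators of many of these genes, and high ribosome output is a known trait of MYCN-amplified neuroblastoma. By role, 6 members belonged to RNA polymerases I and III, 4 to the box C/D snoRNPs, 4 to the box H/ACA snoRNPs, 8 to small subunit assembly, 16 to large subunit assembly and 7 to the nucleolar scaffold and chaperones.

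Promoter windows from RefSeq (GRCh38.p14, 250 bases before to 50 after the start of the gene) were held for 36 of the 45 members, and 16 of these 36 (44.4%) contained CACGTG, a palindrome that reads the same on both strands. The share was 12.4% over the 10925 genes tested in cell culture that had a window and 8.77% over all 27305 genes with one. Among the other genes of the ribosome biogenesis pathway, listed further on, it was 29.6% (37 of 125). The members were chosen as known targets of the MYC family. A higher share among them may therefore be built into the list and is not a finding. Of the 17 matches, 15 began within 40 bases of the start, and 11 spanned or followed it. The following sites are shown because they belong to the members called higher or lower in sh4, shAMB or the tumours. They are written 5′ to 3′ on the strand of the gene, with 12 bases on each side, or fewer where the window ends, and the E-box in capitals.
NAT10 (chr11:34105602-34105631, plus strand, E-box from 15 bases before the start): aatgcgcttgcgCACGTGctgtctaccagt
FBL (chr19:39846356-39846385, minus strand, E-box from base 7 of the transcript): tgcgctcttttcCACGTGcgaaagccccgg
GNL3 (chr3:52686026-52686055, plus strand, E-box from base 7 of the transcript): ggcttcagttcaCACGTGgcgccagcggag
PES1 (chr22:30591880-30591909, minus strand, E-box from base 14 of the transcript): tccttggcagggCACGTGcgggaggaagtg
RRP9 (chr3:51941892-51941921, minus strand, E-box from 5 bases before the start): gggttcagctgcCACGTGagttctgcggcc
UTP20 (chr12:101280083-101280112, plus strand, E-box from 10 bases before the start): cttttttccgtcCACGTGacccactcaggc
LYAR (chr4:4290068-4290097, minus strand, E-box from 64 bases before the start): cggcggcgagtcCACGTGctccccgcggcc
NOP10 (chr15:34343130-34343159, minus strand, E-box from 11 bases before the start): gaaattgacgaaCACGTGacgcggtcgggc
NOP10 (chr15:34343289-34343318, minus strand, E-box from 170 bases before the start): gtagggacactcCACGTGttttagcctgca
GAR1 (chr4:109815781-109815810, plus strand, E-box from base 32 of the transcript): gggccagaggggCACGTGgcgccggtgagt
NOP2 (chr12:6568242-6568268, minus strand, E-box from base 36 of the transcript): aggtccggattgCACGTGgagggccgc
BYSL (chr6:41921515-41921544, plus strand, E-box from base 29 of the transcript): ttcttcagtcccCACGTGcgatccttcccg
A match is a description of the letters and not a site shown to be bound. The 16 members with a match had a median log2 fold change of −0.07 in sh4, −0.03 in shAMB and −0.14 in the tumours, and the 20 without had −0.23, 0.03 and −0.15.

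The depth was 35115915 to 54736733 expected counts in a cell culture library and 47346063 to 62378060 in a tumour library. Levels of 1 gene are given per library in CPM (counts-per-million), in replicate order, with DMSO or control tumours first and doxycycline or KO-labelled tumours after the word against. RUNX1T1 RNA, the targeted transcript, read 34.7, 33.3 and 35.01 CPM against 31.2, 33.9 and 30.1 in sh4 (log2 fold change −0.11, adjusted p = 0.117) and 40.8, 42.00 and 39.9 against 41.3, 44.1 and 42.2 in shAMB (0.06, adjusted p = 0.378). In EV it read 44.1, 39.3 and 42.4 against 36.5, 37.8 and 38.6 (−0.16, adjusted p = 0.672), and in the tumours 34.3, 43.1, 30.00 and 34.4 against 24.3, 35.2, 27.3 and 33.9 (−0.23, adjusted p = 0.229). None of these passed the test. RNA levels do not measure the protein. The study reports lower RUNX1T1 protein in KELLY cells given doxycycline, with each of its hairpins. It also reports loss of RUNX1T1 staining in KELLY tumours after the knockdown. Whether the protein fell in the cultures and tumours sequenced here was not tested. Groups are therefore named by their labels throughout. All 9 neuroblastoma markers read at least 3.52 CPM in every library, and the summed levels of 5 endothelial, 5 leukocyte and 5 erythroid markers were at most 2.33, 2.7 and 0.25 CPM in any library. The 6 fibroblast markers, of which COL1A2 and DCN stayed at or below 0.334 CPM, summed to 43.1 to 52.4 CPM in sh4 with DMSO and 68.2 to 86.9 with doxycycline. In shAMB the sums were 47.9 to 56.3 and 34.5 to 41.2. In the tumours they were 15.5 to 27.1 in controls and 19.9 to 32.1 with the KO label. The part of these shifts in the results was not tested. The submitters' notes name the human genome alone, so these human markers do not measure mouse cells in the tumours. Mouse reads assigned to human genes were not examined.

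The libraries also differed in how strongly their counts rose or fell with the GC content of the transcript, and several members have GC-rich transcripts. Over all tested genes, the GC slope of a library, in log2 units per 10 percentage points of GC relative to the mean of its table, ran from −0.286 to 0.264 in cell culture. Replicates of 1 group could lie at both ends: the sh4 doxycycline libraries had slopes of −0.192, −0.114 and 0.231, so that replicate 3 stood apart from the other two. In the shAMB line the groups did not overlap, with −0.286 to −0.142 for DMSO and 0.063 to 0.264 for doxycycline. The xenografts spanned −0.243 to 0.093 in the controls and −0.244 to 0.266 in those labelled KO. Values are therefore also given after the gene length and GC trends of each library had been taken out by offsets, here called GC correction.

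**Figure D1:**
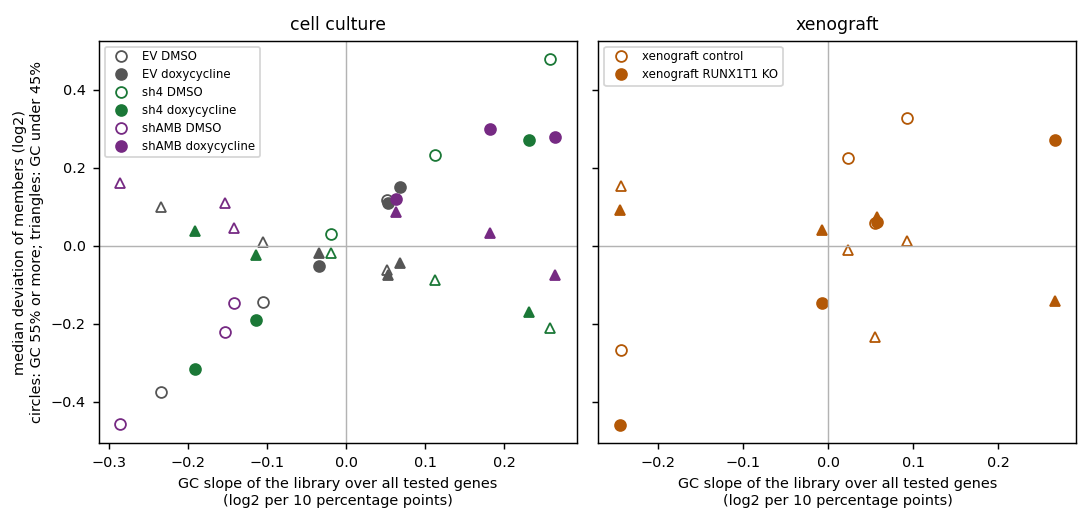
Each library's GC slope over all tested genes (x axis, log2 per 10 percentage points of GC) against the median deviation of the members from their table mean (y axis, log2), for the 17 members with a GC content of 55% or more (circles) and the 12 under 45% (triangles); open symbols are DMSO or control, filled ones doxycycline or RUNX1T1 KO. The GC-rich members reach 0.479 in sh4 DMSO replicate 1, where the slope is 0.258, and fall to −0.460 in KO-labelled replicate 4, where it is −0.244, and sh4 doxycycline replicate 3 lies at 0.231 and 0.271, away from its replicates.

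The members spanned a wide range of expression. Per transcript length, in TPM (transcripts-per-million) as deposited, and averaged over the 3 EV DMSO libraries (± SD), NPM1 was highest at 5034 ± 308, followed by NCL at 1779 ± 41.6, NOP56 at 574 ± 3.59 and FBL at 523 ± 63.2. NOP56 and FBL did not differ beyond the spread of FBL. At the other end stood POLR1A at 15.1 ± 1.04, BOP1 at 13.4 ± 5.33 and NOC4L at 4.74 ± 1.84 TPM, of which POLR1A and BOP1 also lay within the spread of BOP1. Together the 45 genes took 1.04% to 1.24% of all counts in a cell culture library and 0.774% to 0.963% in a xenograft.

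In the EV line, where doxycycline met no hairpin, no member passed an adjusted p of 0.05 in edgeR's quasi-likelihood test or in DESeq2. FBL alone had an unadjusted p under 0.05, 1 of 45. The background in this comparison was 0.0134% of tested genes higher and 0.0805% lower. Before induction, likewise, no member was called between sh4 and EV (18 had an unadjusted p under 0.05, none was called by DESeq2, background 0.597% higher and 0.523% lower) or between shAMB and EV (0 with an unadjusted p under 0.05, none by DESeq2, background 1.11% and 0.416%). The EV changes ran from −0.16 for POLR3G, the member with the lowest GC content at 36.3%, to 0.41 for BOP1, the one with the highest at 65.5%.

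Members were called in both hairpin lines and in the tumours, in differing mixtures. In the sh4 line 5 of 45 members (11.1%) rose with doxycycline and 12 (26.7%) fell, against a background of 22.9% of tested genes higher and 18% lower, and the median log2 fold change was −0.13 beside −0.005 for all genes. In the shAMB line 13 (28.9%) rose and 13 (28.9%) fell, against 37.6% and 28.4%, with a median of 0.004 beside 0.10 for all genes. In the xenografts none rose (0 by edgeR and by DESeq2, while 15 of 45 had an unadjusted p under 0.05 in either direction) and 12 (26.7%) fell, against 21.2% and 19.9%, with a median of −0.12 beside 0.02. The median in shAMB was −0.07 with size factors of the RLE type and 0.04 after GC correction, so no direction can be given to it. The split of calls also moved with the scaling, to 3 higher and 14 lower with RLE factors in sh4 (21.1% and 18.4% of all tested genes) and to 8 and 15 after GC correction (29.9% and 25.3%). In the xenografts it was 4 and 16 after GC correction (24.7% and 28.5%).

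Members called in sh4 depended on single libraries. Without sh4 doxycycline replicate 3, the library with the outlying GC slope, 7 rose and 24 fell, 31 in all, while 9 passed without doxycycline replicate 2 and 11 without doxycycline replicate 1. Among those gained without doxycycline replicate 3 were NOC2L at −0.78 (adjusted p = 0.00238), PPAN at −0.92 (adjusted p = 0.00248), RRP12 at −0.45 (adjusted p = 0.0392), NOP2 at −0.23 (adjusted p = 0.0449) and WDR74 at −0.57 (adjusted p = 0.00342). In the xenografts 7 fell without KO replicate 2 and 7 without control replicate 4. Shares of all tested genes are not given for these reduced fits. The counts thus show dependence on libraries and nothing particular to the members. Fewer RNA molecules per cell and fewer cells of a kind cannot be told apart in such bulk libraries.

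**Figure D2:**
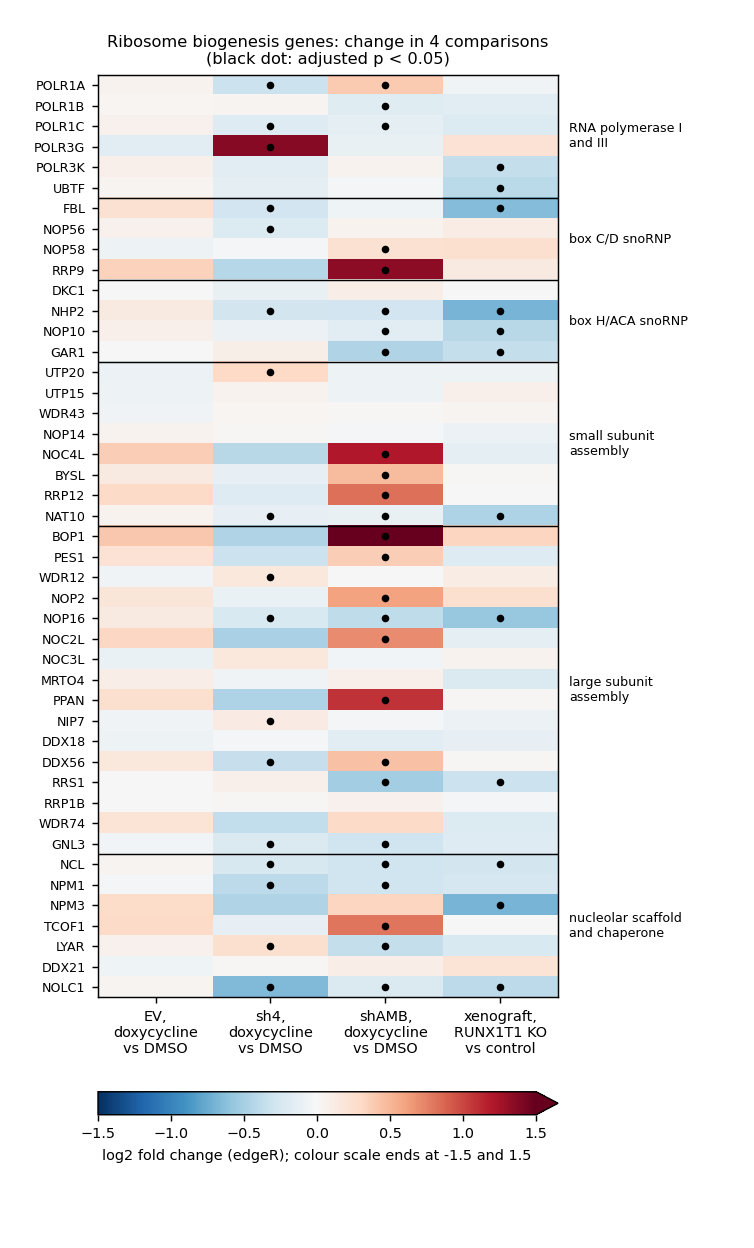
Log2 fold change of the 45 members (rows, by role) in the 4 comparisons (columns), from the edgeR fits of the 18 cell culture and the 8 xenograft libraries; blue is lower, red is higher, and a black dot marks an adjusted p under 0.05. The EV column holds no dot, and NHP2, NAT10, NOP16, NCL and NOLC1 carry a dot on blue in sh4, shAMB and the xenografts.

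Across sh4, shAMB and the xenografts, 35 members were called in at least 1 comparison and 10 in none, namely DKC1, UTP15, WDR43, NOP14, NOC3L, MRTO4, DDX18, RRP1B, WDR74 and DDX21. After GC correction RRP1B was the one of these 10 not called in any of the 3. Before GC correction only NHP2, NAT10, NOP16, NCL and NOLC1 were lower in all 3. POLR1C, GNL3 and NPM1 were then lower in both lines but not called in the xenografts. No member was higher in both lines before it, and POLR1A, DDX56 and LYAR were called in opposite directions in the lines. After GC correction WDR12, NIP7, NOC3L and POLR3G were called higher in both lines, and NAT10, NCL, NOLC1 and WDR74 lower in both. In the tumours WDR12 and POLR3G were then also called higher, and NAT10, NCL and NOLC1 lower. The share of all tested genes with each pattern is not given, so these counts describe the members alone. In single comparisons, 22.9% of all tested genes were higher and 18% lower in sh4. In shAMB the shares were 37.6% and 28.4%, and in the xenografts 21.2% and 19.9%. Of the calls, 6 of 17 in sh4, 15 of 26 in shAMB and 6 of 12 in the xenografts held under every alternative run and without each library in turn; NOLC1 alone did so in all 3 comparisons.

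Among the scaffold and chaperone genes, NOLC1, NCL and NPM1 fell in both lines. NOLC1 encodes a phosphoprotein that accompanies snoRNPs between Cajal bodies and the nucleolus (chr10:102152176-102163871, plus strand, GRCh38). It was singled out after its values were seen. NOLC1 read 531, 548 and 534 CPM against 338, 340.4 and 338 in sh4. In shAMB it went from 549, 519 and 544 to 465, 474 and 449, and in the tumours from 332, 329.6, 333 and 367 in controls to 273, 244, 265 and 255 in those labelled KO. The doxycycline and KO-labelled libraries lay wholly below their controls in each of these. In EV it read 511, 522 and 538 against 541, 540.2 and 539.5, also without overlap but with doxycycline above DMSO, and was not called at 0.05 (adjusted p = 0.672). The log2 fold changes were −0.67 ± 0.0344 (SE, adjusted p = 5.4e-10) in sh4, −0.22 ± 0.0343 (SE, adjusted p = 5.0e-05) in shAMB and −0.39 ± 0.0803 (SE, adjusted p = 0.00282) in the tumours.

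NCL, which encodes nucleolin, a protein of pre-rRNA transcription and early processing (chr2:231453531-231483641, minus strand), was the second most abundant member. It read 2143, 2262 and 2281 CPM against 1948, 1926 and 1799 in sh4, and 2505, 2398 and 2395 against 2029, 2024 and 1882 in shAMB. Both falls cleared the replicate spread, at −0.24 ± 0.0427 (SE, adjusted p = 0.00034) and −0.30 ± 0.0428 (SE, adjusted p = 1.8e-05). In the tumours NCL read 1367, 1099, 1267 and 1343 in controls and 1008, 1002, 1091 and 1080.5 with the KO label, without overlap, at −0.28 ± 0.0997 (SE, adjusted p = 0.0435). That last call was lost without control replicate 1, control replicate 3, control replicate 4, KO replicate 1, KO replicate 2 or KO replicate 4 (adjusted p = 0.0617 to 0.12).

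NPM1 encodes nucleophosmin, the histone and ribosome chaperone of the outer nucleolus (chr5:171387116-171411810, plus strand), and its many processed pseudogenes leave some reads uncertain. In sh4 it fell from 2742, 3009 and 3069 CPM to 2392, 2310.3 and 2021 and in shAMB from 3406, 3529 and 3363 to 2958, 2864 and 2570.02, both without overlap, at −0.39 ± 0.0662 (SE, adjusted p = 0.000191) and −0.30 ± 0.0661 (SE, adjusted p = 0.00106). After GC correction the sh4 value was −0.34 (adjusted p = 3.6e-09) and the shAMB value 0.04 (adjusted p = 0.213). The tumours read 2889, 2078, 2651 and 2824 against 2037, 2122, 2302 and 2284, overlapping through control replicate 2, at −0.26 (adjusted p = 0.122). Without that control library the tumour value was −0.36 (adjusted p = 0.0144).

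NPM3, a smaller relative of NPM1 with a transcript GC content of 56.5%, varied widely between replicates. It read 37.2, 29.4 and 22.5 CPM against 15.9, 19.5 and 29.9 in sh4, 17.00, 15.7 and 20.4 against 20.98, 24.2 and 21.3 in shAMB, and 20.2, 24.7, 33.2 and 30.6 against 23.2, 14.4, 16.9 and 12.4 in the tumours. The lines gave −0.45 (adjusted p = 0.106) and 0.32 (adjusted p = 0.194) (in sh4 −0.74, adjusted p = 0.00441, without doxycycline replicate 3 and −0.61, adjusted p = 0.0358, without DMSO replicate 3), and the tumours, although overlapping, fell by the test at −0.70 ± 0.208 (SE, adjusted p = 0.0198). That call was lost without control replicate 3, control replicate 4 or KO replicate 2 (adjusted p = 0.055 to 0.0616). LYAR, a nucleolar zinc finger protein of rRNA processing, rose in sh4 from 23.1, 23.95 and 24.7 to 29.8, 29.5 and 25.8 CPM and fell in shAMB from 24.3, 25.1 and 25.6 to 20.3, 19.6 and 18.5. The changes of 0.25 ± 0.0621 (SE, adjusted p = 0.00482) and −0.36 ± 0.0627 (SE, adjusted p = 0.000114) had opposite signs, and after GC correction the shAMB value was −0.06 (adjusted p = 0.263). TCOF1, which encodes treacle, the partner of RNA polymerase I, rose in shAMB at 0.80 (adjusted p = 0.00228), or 0.13 (adjusted p = 0.0178) after GC correction. It was not called in the tumours, nor in sh4 unless doxycycline replicate 3 was left out (−0.42, adjusted p = 0.0415), and the helicase gene DDX21 was called in none of the 3, at 0.02, 0.10 and 0.20.

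The box H/ACA genes, whose proteins form the pseudouridine synthase particle around DKC1, included 3 of 4 lower members in shAMB, where 28.4% of all tested genes were lower, and 3 of 4 in the xenografts, where 19.9% were. After GC correction NOP10 was no longer called in either, nor GAR1 in the xenografts. NHP2 (chr5:178149463-178153894, minus strand), a core RNA-binding subunit, read 98.3, 92.1 and 81.3 CPM against 74.2, 68.5 and 81.4 in sh4, 76.3, 73.6 and 79.5 against 61.9, 64.3 and 61.02 in shAMB, and 62.6, 62.5, 76.9 and 73.2 against 50.2, 35.3, 48.01 and 36.6 in the tumours. The shAMB and tumour groups were separate and the sh4 groups overlapped only through the lowest DMSO and the highest doxycycline library. NHP2 changed by −0.28 ± 0.0814 (SE, adjusted p = 0.0121), −0.29 ± 0.0818 (SE, adjusted p = 0.00538) and −0.69 ± 0.133 (SE, adjusted p = 0.00191). The sh4 call was lost without doxycycline replicate 2 (adjusted p = 0.0684) and was −0.01 (adjusted p = 0.932) after GC correction, and 28% of the exon sequence of NHP2 overlaps a gene on the other strand.

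GAR1 (chr4:109815510-109824740, plus strand), the glycine- and arginine-rich subunit, fell in shAMB from 64.4, 66.9 and 64.9 to 48.7, 48.6 and 45.8 CPM, at −0.45 ± 0.0701 (SE, adjusted p = 3.8e-05). In sh4 it read 60.8, 61.2 and 63.6 against 70.5, 67.9 and 58.1, overlapping and with no call at 0.08 (adjusted p = 0.362), although it was called at 0.16 (adjusted p = 0.0387) without doxycycline replicate 3 and at 0.19 (adjusted p = 0.00386) after GC correction. In the tumours it went from 18.5, 18.1, 16.9 and 19.9 to 13.8, 13.5, 13.1 and 16.7, all KO libraries lying below all controls, at −0.36 ± 0.118 (SE, adjusted p = 0.0305), a call that was lost without control replicate 4, KO replicate 2 or KO replicate 3 (adjusted p = 0.0854 to 0.0925) and at −0.21 (adjusted p = 0.0788) after GC correction. NOP10 fell in shAMB at −0.17 (adjusted p = 0.0457), lost without DMSO replicate 1, DMSO replicate 2, DMSO replicate 3 or doxycycline replicate 3 (adjusted p = 0.0518 to 0.227), and in the xenografts at −0.42 (adjusted p = 0.00854). After GC correction NOP10 stood at 0.04 (adjusted p = 0.472) in shAMB and −0.20 (adjusted p = 0.114) in the xenografts. DKC1, the catalytic subunit, was not called. It read 297, 324 and 333 against 316, 304 and 265 CPM in sh4, 346, 355 and 351 against 397, 379.6 and 349.6 in shAMB, and 254, 189.5, 221 and 226 against 214, 213, 229 and 239 in the tumours. The groups overlapped in each, its log2 fold changes were −0.11 (adjusted p = 0.166), 0.10 (adjusted p = 0.166) and 0.01 (adjusted p = 0.97), and the GC-corrected ones passed the test with opposite signs in the lines, −0.15 (adjusted p = 0.00128) and 0.22 (adjusted p = 1.4e-05).

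The box C/D genes did not move together. FBL (chr19:39834458-39846379, minus strand), which encodes the methyltransferase fibrillarin, showed its clearest fall in the tumours, from 171, 192, 188 and 203 CPM in controls to 128, 105, 127 and 119.7 with the KO label, without overlap, at −0.65 ± 0.0906 (SE, adjusted p = 0.000277). In sh4 it read 342, 319 and 288 against 227, 254 and 295, and the call of −0.29 ± 0.103 (SE, adjusted p = 0.0341) was lost without DMSO replicate 1, DMSO replicate 2, doxycycline replicate 1 or doxycycline replicate 2 (adjusted p = 0.0785 to 0.157) and after GC correction, which gave −0.05 (adjusted p = 0.306). In shAMB it read 236, 216 and 262 against 225, 230.5 and 229.7, at −0.06 (adjusted p = 0.62) before and −0.35 (adjusted p = 6.3e-07) after GC correction.

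NOP56, a scaffold of the same particle, fell in sh4 from 548, 555 and 549 to 478, 489 and 465 CPM, at −0.21 ± 0.0378 (SE, adjusted p = 0.000412), and held that call in every alternative. It read 574, 531 and 560.2 against 586, 590.3 and 556 in shAMB and 403, 361, 385 and 363 against 384, 414, 443 and 393 in the tumours, where 0.06 (adjusted p = 0.197) and 0.11 (adjusted p = 0.321) did not pass. Its partner NOP58 rose in shAMB at 0.23 (adjusted p = 0.0142), a call lost without DMSO replicate 3 or doxycycline replicate 1 (adjusted p = 0.0623 and 0.0627). RRP9 (chr3:51933429-51941904, minus strand), the protein specific to the U3 snoRNP that guides the first cuts of the precursor, has a transcript GC content of 60.7%. It read 25.1, 21.9 and 29.2 CPM in shAMB with DMSO and 54.8, 68.2 and 69.4 with doxycycline, at 1.34 ± 0.261 (SE, adjusted p = 0.000333), and 0.70 (adjusted p = 1.7e-07) after GC correction. In sh4 it read 55.9, 47.4 and 34.2 against 23.4, 28.5 and 50.7, where doxycycline replicate 3 lay among the DMSO values. The value was −0.43 (adjusted p = 0.2) with that library and −0.82 (adjusted p = 0.00593) without it. The tumours read 33.2, 43.5, 60.4 and 51.4 against 69.8, 47.6, 55.2 and 34.8, overlapping throughout.

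Among the polymerase genes, POLR3G stood out in sh4. POLR3G (chr5:90471748-90514557, plus strand) encodes the RNA polymerase III subunit that is exchanged with POLR3GL and is known for its expression in stem cells and tumours. It read 33.4, 37.3 and 38.8 CPM against 102, 96.5 and 83.7 in sh4. The fold was 2.58, at 1.37 ± 0.0824 (SE, adjusted p = 3.3e-09), and remained called in every alternative, GC correction giving 1.28 (adjusted p = 3.2e-16). In shAMB it read 43.6, 46.3 and 43.2 against 44.8, 40.6 and 37.3 at −0.12 (adjusted p = 0.222) before and 0.10 (adjusted p = 0.0167) after GC correction, and in EV 44.6, 42.5 and 38.8 against 37.04, 36.9 and 38.5 at −0.16 (adjusted p = 0.672). The tumours read 33.8, 27.3, 28.4 and 30.4 against 30.98, 34.97, 34.8 and 38.2, at 0.21 (adjusted p = 0.126) before and 0.19 (adjusted p = 0.0371) after GC correction.

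POLR1A, the largest catalytic subunit of RNA polymerase I, was lower in sh4 and higher in shAMB. It read 62.8, 53.5 and 52.4 against 39.2, 44.9 and 50.9 CPM in sh4, 44.8, 40.03 and 44.9 against 55.8, 52.8 and 61.2 in shAMB, and 74.99, 90.3, 80.2 and 77.9 against 78.9, 77.1, 81.2 and 74.01 in the tumours. The groups were separate in both lines and overlapped in the tumours, with −0.32 ± 0.0954 (SE, adjusted p = 0.0131), 0.39 ± 0.0957 (SE, adjusted p = 0.00224) and −0.06 (adjusted p = 0.625). The sh4 call was lost without DMSO replicate 1 or doxycycline replicate 1 (adjusted p = 0.0558 and 0.0709). After GC correction POLR1A was −0.40 (adjusted p = 2.1e-05) in sh4, 0.18 (adjusted p = 0.0144) in shAMB and −0.16 (adjusted p = 0.042) in the tumours. POLR1B, the second catalytic subunit, read 78.6, 83.9 and 84.7 against 89.3, 85.7 and 79.3 CPM in sh4, 85.95, 88.9 and 88.5 against 80.99, 75.8 and 75.03 in shAMB, and 98.5, 76.2, 88.2 and 84.3 against 67.9, 77.5, 80.3 and 83.7 in the tumours. Before GC correction only the shAMB fall passed, at −0.18 ± 0.0508 (SE, adjusted p = 0.00483). After it POLR1B was −0.06 (adjusted p = 0.0913) in sh4, −0.10 (adjusted p = 0.00515) in shAMB and −0.21 (adjusted p = 0.0345) in the tumours.

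UBTF, the factor that opens ribosomal DNA for RNA polymerase I, fell in the tumours from 180.4, 193, 200.003 and 218 to 168, 144, 153 and 133 CPM, without overlap, at −0.41 ± 0.096 (SE, adjusted p = 0.0063). In sh4 it read 293, 283 and 264 against 235, 243 and 279, and in shAMB 248, 227 and 246 against 226, 241 and 243, with no call at −0.15 (adjusted p = 0.0858) and −0.02 (adjusted p = 0.797). The shAMB value was −0.45 (adjusted p = 1.6e-08) after GC correction, and the sh4 value was −0.23 (adjusted p = 0.00589) without doxycycline replicate 3. POLR1C, shared by both polymerases, fell in sh4 at −0.20 (adjusted p = 0.0142) and in shAMB at −0.15 (adjusted p = 0.0418), calls lost without DMSO replicate 2 (adjusted p = 0.0755) in sh4 and without DMSO replicate 1, DMSO replicate 2, DMSO replicate 3 or doxycycline replicate 3 (adjusted p = 0.0531 to 0.23) in shAMB. After GC correction POLR1C was 0.01 (adjusted p = 0.873) in shAMB. POLR3K, a small RNA polymerase III subunit, fell in the tumours at −0.36 (adjusted p = 0.0157), which was lost without control replicate 3, control replicate 4 or KO replicate 2 (adjusted p = 0.0511 to 0.0522) and at −0.18 (adjusted p = 0.0917) after GC correction.

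Of the 8 small subunit factors, NAT10, the acetyltransferase of 18S rRNA, was lower in both lines and most clearly in the tumours. It read 112, 119, 119 and 119 CPM in control tumours and 94.2, 78.4, 85.4 and 82.4 with the KO label, without overlap, at −0.46 ± 0.0804 (SE, adjusted p = 0.00106). In sh4 it went from 145, 145 and 137 to 126, 131 and 136 at −0.13 (adjusted p = 0.0387), lost without DMSO replicate 1, DMSO replicate 2, doxycycline replicate 1 or doxycycline replicate 2 (adjusted p = 0.0749 to 0.149). In shAMB it went from 131, 121 and 128 to 115, 120.4 and 117 at −0.11 (adjusted p = 0.0471), lost without DMSO replicate 1, DMSO replicate 3, doxycycline replicate 1 or doxycycline replicate 3 (adjusted p = 0.0874 to 0.157). GC correction gave −0.17 (adjusted p = 6.8e-05) in sh4 and −0.22 (adjusted p = 2.5e-06) in shAMB.

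NOC4L, a factor of late nuclear small subunit assembly whose transcript is 63.9% GC, was the member with the lowest level per length. It read 2.64, 2.47 and 3.48 CPM against 5.53, 6.54 and 7.62 in shAMB, at 1.1978 ± 0.329 (SE, adjusted p = 0.00473), or 0.31 (adjusted p = 0.0279) after GC correction. In sh4 it read 7.96, 6.31 and 5.02 against 2.83, 3.82 and 7.85, where replicate 3 was the high one, and the value of −0.42 (adjusted p = 0.308) became −0.95 (adjusted p = 0.00787) without it. The tumours read 2.97, 5.17, 5.57 and 5.05 against 7.04, 3.71, 4.00 and 2.23, more spread within groups than between them. After GC correction NOC4L was −0.34 (adjusted p = 0.0344) in the tumours and −0.08 (adjusted p = 0.556) in sh4. RRP12, of pre-ribosome export, and BYSL, of late small subunit maturation, also rose in shAMB, at 0.83 (adjusted p = 0.00163) and 0.47 (adjusted p = 0.00179), with 0.27 (adjusted p = 0.00107) and 0.03 (adjusted p = 0.656) after GC correction. UTP20, a large scaffold of the small subunit processome, rose in sh4 at 0.29 (adjusted p = 0.00225). It was not called in shAMB or the tumours before GC correction. After the correction UTP20 was 0.17 (adjusted p = 9.0e-05) in sh4, −0.08 (adjusted p = 0.0184) in shAMB and −0.20 (adjusted p = 0.0341) in the tumours. UTP15, WDR43 and NOP14, all of the small subunit processome, were not called before the correction. Their log2 fold changes in sh4, shAMB and the tumours were 0.06, −0.08 and 0.07 for UTP15, 0.03, 0.01 and 0.04 for WDR43, and 0.02, −0.01 and −0.09 for NOP14.

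Of the 16 large subunit factors, 2 rose (12.5%) and 3 fell (18.8%) in sh4, against 22.9% and 18% of all tested genes. In shAMB 6 rose (37.5%) and 3 fell (18.8%), against 37.6% and 28.4%. In the xenografts 0 rose and 2 fell (12.5%), against 21.2% and 19.9%. These shares lay near or below those of all tested genes. BOP1, PES1 and WDR12 form the PeBoW complex of 28S and 5.8S rRNA maturation. BOP1 and PES1 rose in shAMB and WDR12 in sh4. BOP1, the member with the most GC-rich transcript, read 12.6, 9.46 and 12.8 CPM in shAMB with DMSO and 27.8, 37.96 and 48.9 with doxycycline, at 1.72 ± 0.41 (SE, adjusted p = 0.00172), or 0.62 (adjusted p = 0.000459) after GC correction. In sh4 it read 42.3, 27.8 and 19.7 against 12.7, 13.6 and 39.6, at −0.45 (adjusted p = 0.379) with doxycycline replicate 3 and −1.19 (adjusted p = 0.00674) without it. The KO-labelled tumours alone spanned 57.4, 28.4, 36.3 and 15.2, against 11.7, 28.99, 39.6 and 29.3 in controls. Even among the 9 DMSO libraries BOP1 ran from 9.46 to 42.3 CPM, the lowest in the library with the lowest GC slope and the highest in the one with the highest.

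PES1 read 192, 171 and 149 against 111, 129 and 168 CPM in sh4, 131, 120.1 and 147 against 155, 178 and 183 in shAMB, and 122, 141, 186 and 175 against 173, 123, 149.6 and 98.8 in the tumours. The shAMB rise of 0.37 ± 0.142 (SE, adjusted p = 0.0318) was lost without DMSO replicate 1, DMSO replicate 2, doxycycline replicate 2 or doxycycline replicate 3 (adjusted p = 0.0756 to 0.124), and was −0.07 (adjusted p = 0.0867) after GC correction. In sh4 PES1 stood at −0.33 (adjusted p = 0.078), which was −0.51 (adjusted p = 0.004) without doxycycline replicate 3 and −0.42 (adjusted p = 0.0417) without DMSO replicate 3. After GC correction PES1 was −0.18 (adjusted p = 0.000175) in sh4 and −0.27 (adjusted p = 0.0167) in the tumours. The rise of WDR12 in sh4, 0.15 (adjusted p = 0.0447), was lost without DMSO replicate 1, DMSO replicate 2, doxycycline replicate 1 or doxycycline replicate 2 (adjusted p = 0.0712 to 0.286). After GC correction WDR12 was 0.13 (adjusted p = 8.3e-05) in sh4, 0.27 (adjusted p = 4.9e-09) in shAMB and 0.16 (adjusted p = 0.0446) in the tumours.

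DDX56, a helicase of late large subunit steps, fell in sh4 from 150.4, 139.9 and 127 to 97.6, 104 and 127 CPM and rose in shAMB from 108, 95.1 and 116 to 135, 149.9 and 148. The changes were −0.35 ± 0.102 (SE, adjusted p = 0.0125) and 0.44 ± 0.102 (SE, adjusted p = 0.00138), or −0.25 (adjusted p = 1.5e-06) and 0.04 (adjusted p = 0.292) after GC correction, and the sh4 call was lost without doxycycline replicate 1 or doxycycline replicate 2 (adjusted p = 0.0649 and 0.0528). The tumours overlapped, with 104, 111, 130.3 and 119 against 137, 108, 123 and 102. RRS1, which brings the 5S ribonucleoprotein into the large subunit, fell in shAMB from 45.8, 44.8 and 44.6 to 33.5, 30.5 and 30.3 CPM, at −0.52 ± 0.0498 (SE, adjusted p = 2.3e-07), and in the tumours at −0.32 (adjusted p = 0.0306), lost there without control replicate 3, control replicate 4, KO replicate 2 or KO replicate 4 (adjusted p = 0.0696 to 0.1). In sh4 it stayed between 43.1 and 49.1 CPM in all 6 libraries.

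NOP16 fell in sh4 at −0.23 (adjusted p = 0.0106), in shAMB at −0.38 (adjusted p = 9.3e-05) and in the xenografts at −0.57 (adjusted p = 0.0104). The sh4 call was lost without doxycycline replicate 2 (adjusted p = 0.0636), and was −0.02 (adjusted p = 0.733) after GC correction. GNL3, which encodes nucleostemin, fell in sh4 at −0.22 (adjusted p = 0.0315), lost without DMSO replicate 2, DMSO replicate 3, doxycycline replicate 2 or doxycycline replicate 3 (adjusted p = 0.0758 to 0.109), and in shAMB at −0.30 (adjusted p = 0.00261), where GC correction gave −0.05 (adjusted p = 0.267). NIP7 rose in sh4 at 0.13 (adjusted p = 0.0423), lost without DMSO replicate 1, doxycycline replicate 1 or doxycycline replicate 2 (adjusted p = 0.129 to 0.38). After GC correction NIP7 was 0.11 (adjusted p = 0.00871) in sh4, 0.16 (adjusted p = 0.000254) in shAMB and −0.06 (adjusted p = 0.517) in the tumours. NOP2, the rRNA cytosine methyltransferase, PPAN and NOC2L rose in shAMB at 0.60 (adjusted p = 0.000107), 1.09 (adjusted p = 0.00253) and 0.71 (adjusted p = 0.00768). After GC correction these read 0.27 (adjusted p = 7.8e-07), 0.33 (adjusted p = 0.000862) and 0.12 (adjusted p = 0.0902). In the tumours the corrected values were 0.17 (adjusted p = 0.0428) for NOP2, −0.10 (adjusted p = 0.372) for PPAN and −0.28 (adjusted p = 0.0258) for NOC2L. For NOP2 and PPAN, 54.4% and 49.2% of the exon sequence is shared with another annotated gene on the same strand, so their counts are uncertain. Same-strand overlap is also 11.3% for RRS1 and 10.1% for WDR74. Genes on the opposite strand overlap 20.7% of NOP14, 18.6% of NOP16, 18.4% of NIP7, 18.3% of POLR1C and 12.2% of WDR74. NOC3L, MRTO4, DDX18, RRP1B and WDR74 were not called, and their log2 fold changes in sh4, shAMB and the tumours were 0.16, −0.05 and 0.06 for NOC3L, −0.05, 0.07 and −0.21 for MRTO4, −0.01, −0.16 and −0.12 for DDX18, 0.02, 0.07 and −0.02 for RRP1B, and −0.37, 0.28 and −0.20 for WDR74.

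**Figure D3:**
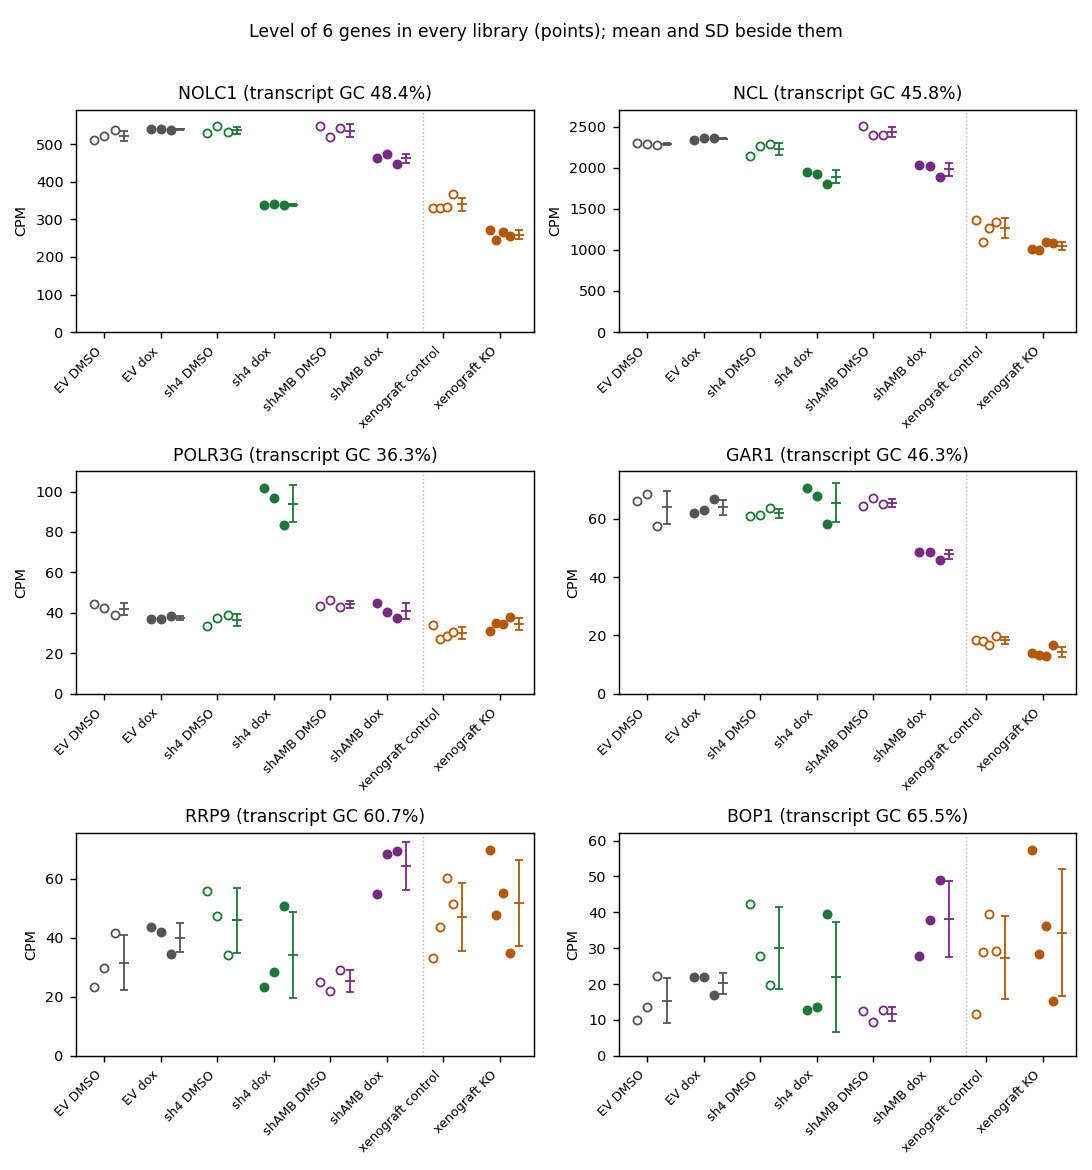
CPM of NOLC1, NCL, POLR3G, GAR1, RRP9 and BOP1 in each library (points), by group, with the group mean and SD beside the points; open points are DMSO or control, filled points doxycycline or RUNX1T1 KO, and the dotted line separates the xenografts, which were scaled on their own. NOLC1 and NCL lie lower in the treated group of both lines and the tumours, POLR3G is at 83.7 to 102 CPM in sh4 with doxycycline and lower in every other group, and BOP1 and RRP9 scatter within groups.

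Seen over all 45 members, the changes in cell culture varied with transcript GC content. The members ran from 36.3% to 65.5% GC, with a median of 51% beside 48.7% for the tested genes. Across members, Pearson's r between log2 fold change and GC content was 0.91 for the EV line, −0.62 for sh4, 0.68 for shAMB and −0.14 for the tumours, beside 0.44, −0.24, 0.44 and 0.08 over all tested genes with a GC value. Before induction it was 0.90 for sh4 with DMSO minus EV with DMSO and −0.86 for shAMB minus EV. These correlations are across 45 genes from the same libraries, described with no test. The 17 members with 55% GC or more had a median log2 fold change of 0.23 in EV, −0.33 in sh4 and 0.47 in shAMB, and the 12 under 45% GC had −0.07, 0.04 and −0.08. After GC correction the GC-rich members stood at 0.07, −0.10 and 0.04 and the GC-poor ones at 0.01, −0.04 and 0.10.

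**Figure D4:**
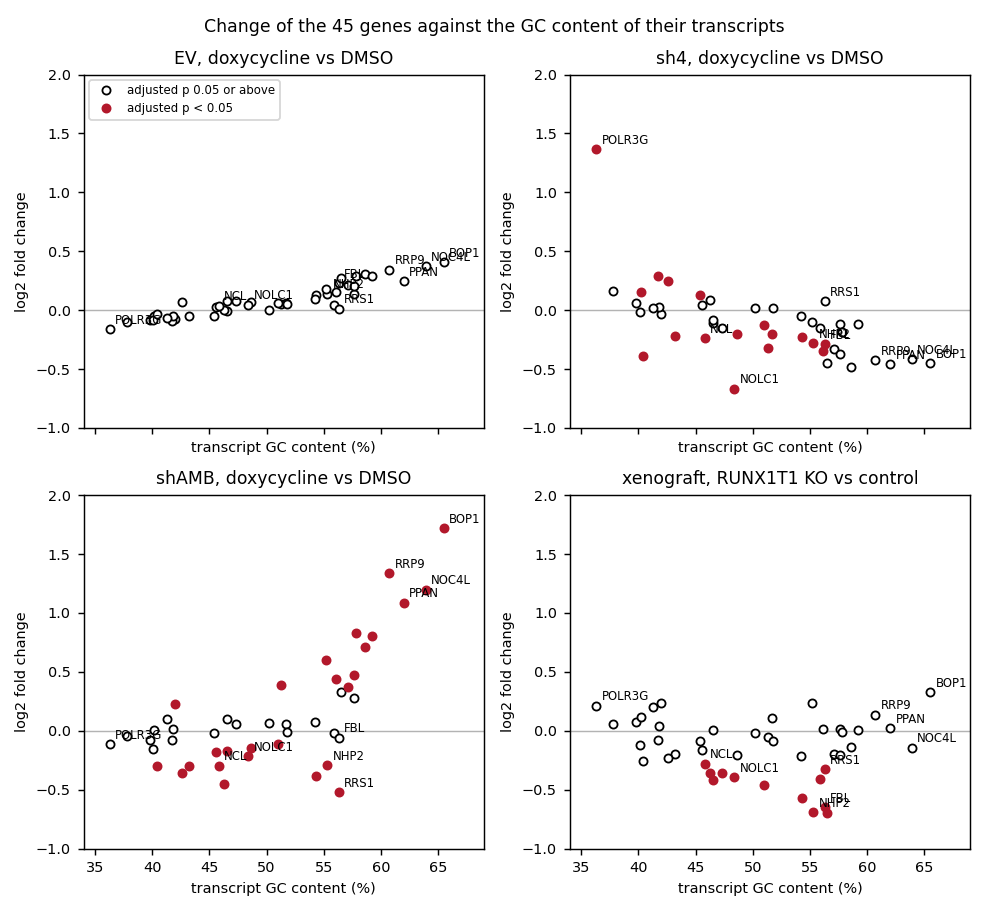
Log2 fold change of each of the 45 members (y axis) against the GC content of its transcript in percent (x axis) in 4 comparisons, before GC correction; red points have an adjusted p under 0.05. The points slope upward in EV (r = 0.91) and shAMB (r = 0.68), downward in sh4 (r = −0.62) and show little slope in the xenografts (r = −0.14).

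With GC correction the counts of called members were 8 higher and 15 lower in sh4, 18 and 14 in shAMB (37.2% and 34.5% of all tested genes), and 4 and 16 in the xenografts. In shAMB 11 of the 17 GC-rich members rose before it and 7 after, namely RRP9, BOP1, PPAN, NOC4L, NOP2, RRP12 and TCOF1, each by less. RRS1, NOP16, NHP2, NCL, GAR1, NAT10, POLR1B and NOLC1 were lower both before and after. Of the 12 GC-poor members 1 was higher before and 7 after, among them NOP58 at 0.50 (adjusted p = 1.7e-10) and DDX21 at 0.27 (adjusted p = 9.8e-09). In the xenografts, where the slopes of the groups overlapped, GC correction left NOLC1 at −0.44 (adjusted p = 0.000274), NAT10 at −0.53 (adjusted p = 2.7e-05), NHP2 at −0.59 (adjusted p = 6.0e-05), FBL at −0.57 (adjusted p = 0.000959) and UBTF at −0.52 (adjusted p = 6.6e-05). NOLC1 after correction was −0.74 (adjusted p = 3.2e-13) in sh4 and −0.20 (adjusted p = 1.2e-05) in shAMB.

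The lines were also compared directly, as differences between their doxycycline effects; they use the same libraries as the comparisons above. Against the EV effect, 2 members were higher and 11 lower in sh4 (background 17.8% and 14.7%), with POLR3G at 1.53 ± 0.116 (SE, adjusted p = 1.3e-07) and NOLC1 at −0.71 ± 0.0485 (SE, adjusted p = 4.1e-08). There were 31 without sh4 doxycycline replicate 3 and 20 without EV DMSO replicate 3. In shAMB 3 were higher and 10 lower (background 23.7% and 21.7%), with RRS1 at −0.53 ± 0.0702 (SE, adjusted p = 1.7e-05) and GAR1 at −0.45 ± 0.099 (SE, adjusted p = 0.00152). There were 8 without EV doxycycline replicate 3, 8 without shAMB doxycycline replicate 3, and 11 higher and 15 lower after GC correction (29.1% and 30.3% of all tested genes). With RLE factors the shAMB difference gave 2 higher and 14 lower (20.8% and 23.6%). No background share stands beside the counts with a library left out, which describe dependence on libraries alone.

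Between the hairpins the effects differed for 24 of 45 members. Of these, 6 were higher in sh4 than in shAMB and 18 lower, against a background of 27.8% and 33.1%. The differences in effect (sh4 minus shAMB) were 1.48 ± 0.116 (SE, adjusted p = 4.3e-08) for POLR3G, 0.61 ± 0.0882 (SE, adjusted p = 3.1e-05) for LYAR, 0.59 ± 0.07 (SE, adjusted p = 3.7e-06) for RRS1 and 0.54 ± 0.0988 (SE, adjusted p = 0.000278) for GAR1. On the lower side they were −0.45 ± 0.0485 (SE, adjusted p = 1.4e-06) for NOLC1, −0.71 ± 0.135 (SE, adjusted p = 0.000366) for POLR1A and −0.79 ± 0.144 (SE, adjusted p = 0.000262) for DDX56. The widest gaps, −2.17 for BOP1, −1.76 for RRP9 and −1.62 for NOC4L, belonged to GC-rich transcripts and were −0.77, −0.85 and −0.39 after GC correction. NCL and NPM1 did not pass in this comparison, at 0.06 (adjusted p = 0.396) and −0.10 (adjusted p = 0.386).

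Summed over the 45 genes, the level was 11615.8 to 12032.4 CPM in sh4 with DMSO and 10059.0 to 10428.1 with doxycycline, and 12343.5 to 12524.8 and 11188.1 to 11873.8 in shAMB, lower with doxycycline in both lines without overlap. In the EV line it was 11933.4 to 12028.7 and 12121.8 to 12201.1, higher with doxycycline without overlap. The tumours overlapped, at 8271.3 to 9840.1 in controls and 8236.9 to 8927.0 with the KO label. NPM1 and NCL contributed more to these sums than any other member. As a share of all counts, before scaling, the members took 1.15% to 1.18% in sh4 with DMSO and 1.04% to 1.05% with doxycycline. In shAMB the share was 1.2% to 1.24% in both groups, so the fall of the sum in shAMB appeared only after scaling. The EV shares were 1.18% to 1.19% with DMSO and 1.19% with doxycycline. MYCN, a known activator of the pathway, read 2323, 2218 and 2035 CPM against 3246, 3202 and 4089.7 in sh4, at 0.68 (adjusted p = 4.6e-06). In shAMB it read 2085, 2129.5 and 2169.99 against 5944, 6442 and 6561, at 1.57 (adjusted p = 1.8e-10), and in the tumours it stood at 1.46 (adjusted p = 3.1e-05). Its partner MAX was at −0.22 (adjusted p = 0.00362), −0.59 (adjusted p = 1.6e-07) and −0.48 (adjusted p = 0.00234) in the same order. MYC was at most 0.3 CPM in any library.

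Beyond the members, 148 further genes of the pathway were tested. In sh4 27 of them rose and 24 fell (18.2% and 16.2%, against 22.9% and 18% of all tested genes). In shAMB 42 rose and 50 fell (28.4% and 33.8%, against 37.6% and 28.4%), and in the xenografts 15 rose and 40 fell (10.1% and 27%, against 21.2% and 19.9%). Their medians were −0.03, −0.02 and −0.12. The 10 other genes of the RNA polymerase I machinery had 2 higher and 4 lower in sh4, 2 and 5 in shAMB, and 1 and 5 in the xenografts, to be read against the same shares of all tested genes. The pathway genes called in all 3 comparisons with the largest mean change were RRN3, EMG1, GTF3A, ERI1, TAF1B and SPATA5. EMG1, an 18S rRNA methyltransferase, fell in each, at −0.53, −0.52 and −0.65. RRN3, the initiation factor of RNA polymerase I, which has expressed pseudogenes that may share its reads, was −0.46 in sh4 but 0.63 in shAMB and 0.65 in the xenografts. TAF1B, of its promoter selectivity factor, was 0.29, −0.64 and −0.34, and GTF3A, the 5S rRNA transcription factor TFIIIA, was 0.24, −0.61 and −0.51. ERI1, which trims 5.8S rRNA, was 0.46, −0.38 and −0.45, and SPATA5, a large subunit assembly ATPase, was 0.26, −0.37 and −0.60.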

How the data were processed

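RNA-seq of KELLY cells covered 18 cell culture libraries (3 lines, DMSO or doxycycline, 3 each) and 8 xenograft libraries (4 and 4). The authors deposited RSEM expected counts per gene, neither normalized nor filtered, and the TPM that RSEM derives from them by gene length; the submitters' processing notes list STAR, SAMtools, RSEM and hg38, and the strand setting of the counting is not given in the sources used here. In the column names, Neg was taken to stand for DMSO and Pos for doxycycline. The xenograft TPM were not used, because small RNA genes took a large share of them, so levels per length are given for cell culture alone.

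Expected counts were rounded (91.8% of cell culture and 91% of xenograft values were whole already), filtered with filterByExpr, scaled by TMM and tested with the quasi-likelihood F test of edgeR 4.0.16 in R 4.3.3, with limma 3.58.1. The 18 cell culture libraries shared 1 fit and the 8 xenografts had their own, so levels must not be compared across them. Both tables listed 26485 genes, of which 14905 and 15960 were tested, and p-values were adjusted over all of them by the Benjamini-Hochberg method, with a call at an adjusted p under 0.05. The biological coefficient of variation was 0.115 in the culture fit and 0.186 in the tumour fit. Total expected counts per library were 35115915 or more, and precision was set by the spread between libraries. No pair of libraries agreed within counting noise, and nothing says that replicates came from separate cultures, so p-values may measure technical spread.

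GC content and gene positions came from the GENCODE annotation of GRCh38, over all transcripts of a gene, and GC content was found for 96.6% and 95.8% of tested genes. GC correction used offsets from a smooth trend of each library on gene length and GC content. The GC slope of a library was fitted to log2 CPM with 0.5 added. Other alternatives were RLE size factors, no low-count filter, DESeq2 1.42.0, the replicate number as a block, only the libraries compared, and leaving out each library. The scripts were tested on simulated data.

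The members, roles and pathway lists were chosen with earlier results of these data known. Library values are given for NCL, NPM1, FBL, NOP56, DKC1, PES1, POLR1B and UBTF, for the member of each role with the largest mean absolute change, and for members called in opposite directions in the lines. NOLC1, GAR1, NAT10 and RRS1 were added after their values were seen. From the wider pathway lists, the 6 genes called in all 3 comparisons with the largest mean absolute change are named.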

Additional observations from a re-analysis of the deposited data

Results flagged for a closer look

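LYAR read 16.88 CPM in 1 of the 4 tumours labelled KO, apart from the other three by Dixon's test. Chance flags about 1 in 20 groups in this way, and many groups were examined.

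The doxycycline effects differed between lines by a test of the difference itself for 13 members between sh4 and EV, 13 between shAMB and EV, and 24 between sh4 and shAMB. Among the members given with their library values, the sh4 effect minus the shAMB effect, in log2 units, was above 0 for POLR3G (1.48), LYAR (0.61) and POLR1B (0.23). It was below 0 for NOP56 (−0.26), DKC1 (−0.21), PES1 (−0.70), POLR1A (−0.71), NPM3 (−0.77), DDX56 (−0.79), NOC4L (−1.62), RRP9 (−1.76) and BOP1 (−2.17). All of these passed an adjusted p of 0.05 in edgeR's quasi-likelihood test. The calls of DKC1 and NPM3 were each lost without any of several single libraries (adjusted p = 0.0528 to 0.232 and 0.0518 to 0.114). After GC correction POLR1B stood at 0.04 (adjusted p = 0.405) and NPM3 at −0.20 (adjusted p = 0.203), no longer called. PES1 was then −0.11 (adjusted p = 0.0479), and the others listed here remained called.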

How the results depend on the processing

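No member was called in the EV line under any alternative. Counts of called members moved by more than 1.5 times in the following settings, and the causes were not tested beyond the smaller number of libraries in some. With only the libraries compared in the fit, 6 were called in sh4 and 20 for shAMB against EV. With gene length and GC offsets, 20 were called in the xenografts, 21 for sh4 against EV, 26 for shAMB against EV and 1 between shAMB and EV with DMSO. Leaving out 1 library at a time gave 9 to 31 in sh4, 7 to 17 in the xenografts, 10 to 31 for sh4 against EV and 8 to 16 for shAMB against EV. Shares of all tested genes are not given for these reduced fits. In shAMB the same offsets turned the direction of the called members NPM1 (0.0389), PES1 (−0.0683), NOP10 (0.0396) and POLR1C (0.0090), and of POLR3G (0.0982), which was not called before. Of the values under alternatives of the genes given with library values by rule, 567 kept their direction and side of the threshold, 34 lost and 25 gained a call, and 3 turned.

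Replicate numbers did not pair the samples, since the correlation of same-numbered deviations ran from −0.603 to −0.0755 in sh4, −0.101 to 0.13 in shAMB and −0.497 to 0.374 in the xenografts. With the number as a replicate block 7 members were called in the xenografts and 15 and 24 in sh4 and shAMB.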
